A study of Mus musculus with 12 samples.

Results

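The comparison described here sets mice that received a retrieval tone before extinction (RE group) against mice that received extinction alone (E group), across all mature miRNAs counted in the basolateral amygdala (BLA). The members are the 3 RE libraries (RE replicates 3 to 5) and the 3 E libraries (E replicates 1 to 3) of 12 libraries in the series, and every mature miRNA of the count table, with entries of the same sequence and counts kept once. This left 1060 mature miRNAs, of which 431 had enough counts to be tested, 43 of them predicted by the authors and not annotated. The question is which miRNAs differ between memory updating by retrieval-extinction and plain extinction.

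All mice were male C57BL/6J mice of 10 weeks, with no transgene or drug named for these groups. Mice of both groups were conditioned with 3 pairings of tone and foot shock (0.6 mA). In E mice extinction followed after 24 h and consisted of 2 sessions, 30 min apart, with 18 tones in each. RE mice heard 1 retrieval tone in the extinction context at 24 h and spent 1 h in the home cage before the extinction sessions. The groups thus differ in this trial, its handling and context exposure, and the later time of extinction and tissue collection after conditioning. The BLA was taken 1 h after the last training. The C group (controls without shock) and the F group (conditioning alone), with 3 mice each, enter the fit for its estimate of spread and are given here for their levels. Each library is 1 mouse, and bulk tissue cannot tell fewer cells of a type from less RNA per cell.

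A miRNA is a short RNA cut from a hairpin precursor, whose 5p and 3p arms can both be loaded into Argonaute. Pairing of its seed, bases 2 to 8, with messenger RNAs lowers their translation or stability. In neurons some miRNAs follow activity, such as miR-132, which the transcription factor CREB induces, while others mark vessels, glia or endocrine cells. The amygdala stores associations between cues and threat, and a retrieved memory passes through a labile phase in which it can be changed.

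Total counts per library were 1290680 to 1791196 in the E group and 1093194 to 1925516 in the RE group. Levels are given as CPM, counts scaled to a common library total with TMM factors. Replicate 4 of RE, 2 of E, 1 of F and 2 of C stood apart from the other 8 libraries on a first component with 63.8% of the variance, and let-7g-5p led them rather than miR-148a-3p. Each group holds 1 such library, no label names a batch, and values are therefore also given with a term for this library set, within E replicate 2 and RE replicate 4, and within the others. Common dispersion was 0.184 without this term and 0.0294 with it, and the median standard error of a log2 fold change was 0.41 and 0.21. The set was drawn from these same counts. Among neuronal markers, miR-9-5p was at 25778 to 31383 CPM and miR-124-3p at 683 to 1328 CPM in the 6 libraries, and the liver miRNA miR-122-5p was at 6.77 to 16.9 CPM.

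The sequences below are those of some of the miRNAs on which the results turn, in RNA letters from 5′ to 3′ with the seed in capitals. Those of miR-143 and miR-145 are not shown. Sequences are from RefSeq (GRCm38.p6), which matched 653 of the 753 annotated miRNAs by name and sequence. Those of miR-1264-5p, miR-375-3p, miR-34c-5p and the shorter forms come from the deposited table. The first set comes from hairpins within the gene Htr2c on chromosome X and shows that, except for miR-448-3p and its shorter form, its members share no seed:
miR-3552: aGGCUGCAggcccacuucccu
miR-1912-3p: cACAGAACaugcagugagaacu
miR-1264-5p: aGGUCCUCaauaaguauuuguu
miR-1264-3p: cAAAUCUUauuugagcaccugu
miR-1298-5p: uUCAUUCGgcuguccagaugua
miR-1298-3p: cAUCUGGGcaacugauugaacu
miR-448-3p: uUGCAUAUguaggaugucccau
shorter form of miR-448-3p: uUGCAUAUguaggauguccca

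The second set holds miRNAs with higher values in RE libraries, beside the relatives that share a seed or hairpin with them. miR-132-3p and miR-212-3p share a seed, as do miR-24-3p and its shorter form, miR-200b-3p and miR-429-3p, and the miRNAs of the miR-34 and miR-449 family, while the seed of miR-200a-3p is another:
miR-184-3p: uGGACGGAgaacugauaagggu
miR-132-3p: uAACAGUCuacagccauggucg
miR-212-3p: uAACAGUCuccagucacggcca
miR-132-5p: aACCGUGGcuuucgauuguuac
miR-181a-5p: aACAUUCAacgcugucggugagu
miR-128-3p: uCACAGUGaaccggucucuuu
miR-24-3p: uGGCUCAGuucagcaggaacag
shorter form of miR-24-3p: uGGCUCAGuucagcaggaac
miR-200b-3p: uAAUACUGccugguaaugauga
miR-429-3p: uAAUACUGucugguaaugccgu
miR-200a-3p: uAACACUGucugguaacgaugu
miR-34a-5p: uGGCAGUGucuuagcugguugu
miR-34c-5p: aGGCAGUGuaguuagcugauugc
miR-449a-5p: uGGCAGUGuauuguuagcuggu

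The last set, miR-375-3p and miR-7a-5p, is known from endocrine cells and had lower values in most RE libraries:
miR-375-3p: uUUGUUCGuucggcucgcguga
miR-7a-5p: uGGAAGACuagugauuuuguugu

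Most miRNAs had close levels after extinction and after retrieval-extinction. Of 431 log2 fold changes (RE minus E), 85.4% were under 0.5 in size, and the median was 0.05. The study's criterion asks for a log2 fold change past 1 in either direction and an unadjusted p under 0.05. By it 1 miRNA was higher in the RE group (0.232% of those tested) and 3 were lower (0.696%). The higher one was miR-184-3p, and the lower ones were miR-3552, miR-143-5p and miR-143-3p. After Benjamini-Hochberg adjustment over all 431, edgeR called 0 (0.0%), with 10 at an unadjusted p under 0.05 and a smallest adjusted p of 0.627, and DESeq2 called 1, miR-1298-3p. At an unadjusted p under 0.05, 4 were higher (0.928%) and 6 lower (1.39%). All 3 RE libraries lay above all 3 E libraries for 18 miRNAs (4.18%) and below them for 15 (3.48%).

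**Figure D1:**
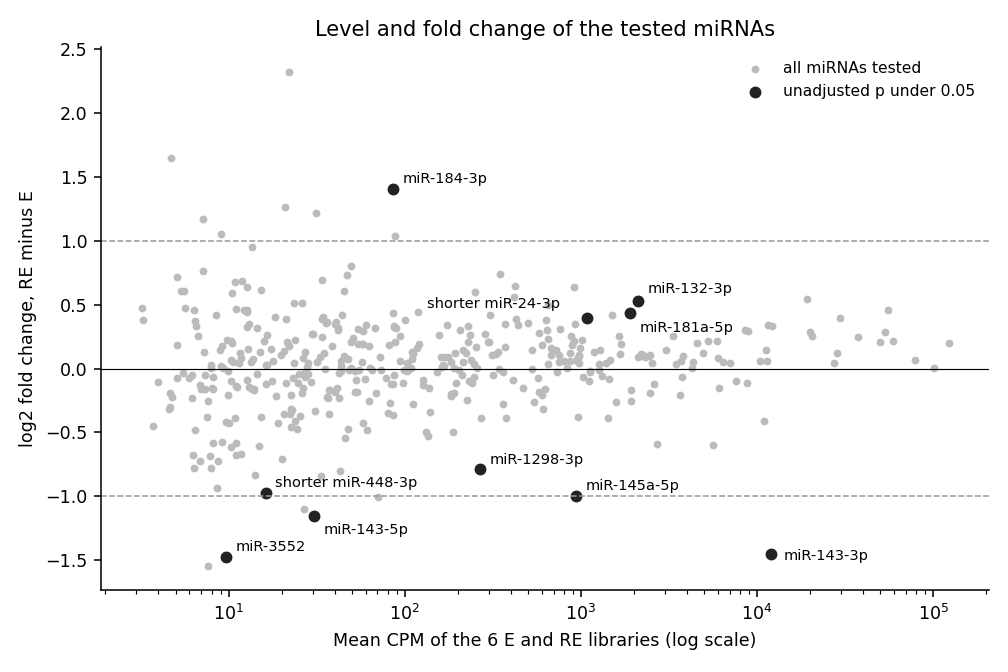
Log2 fold change (RE minus E) against the mean CPM of the 6 E and RE libraries (log scale) for the 431 miRNAs tested; black points are the 10 with an unadjusted p under 0.05 in edgeR, and dashed lines mark the limit of 1 in each direction. Most points (85.4%) lie within 0.5 of 0, and the black points reach from −1.47 (miR-3552) to 1.40 (miR-184-3p).

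With the library-set term, 36 miRNAs were higher at an unadjusted p under 0.05 (8.35% of 431) and 18 lower (4.18%), and the 10 found without the term were among them. edgeR then called 1 miRNA after adjustment (0.232%), miR-143-3p, and DESeq2 with the same term called 8: miR-1298-3p, miR-132-3p, miR-132-5p, miR-143-3p, miR-145a-5p, miR-181a-5p, miR-1843b-5p and the shorter form of miR-24-3p. DESeq2's own filter on mean counts left some miRNAs, such as miR-3552 and miR-143-5p, without an adjusted p in that fit. Its 8 calls thus come from fewer than 431 tests. The numbers past the study's criterion with the term were 5 higher and 5 lower in either tool.

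Of the 10 miRNAs at an unadjusted p under 0.05, 3 come from hairpins within Htr2c, which encodes a serotonin receptor that signals through Gq and is abundant in choroid plexus and in parts of the limbic system. Htr2c spans chromosome X from 146962513 to 147197277 on the plus strand (GRCm38, GENCODE M21). The hairpins of miR-3552 (146999405 to 146999509), miR-1912 (147009441 to 147009527), miR-1264 (147010601 to 147010686), miR-1298 (147064905 to 147065002) and miR-448 (147158210 to 147158321) all lie in its introns on the same strand. The table holds 10 mature miRNAs of these hairpins, of which 8 were tested. All 8 had lower means in the RE than in the E group, with a median log2 fold change of −0.56 against 0.05 over all miRNAs tested. This list was completed by location after the values of some members had been seen.

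miR-1298-3p was at 348, 336 and 331 CPM in the E libraries and at 158, 245 and 184 CPM in the RE libraries. The groups do not overlap, and the E values lie close to each other. The means were 338 ± 8.86 and 196 ± 44.9 CPM (SD, n = 3 each), which gives −0.79 on the log2 scale with a standard error (SE) of 0.20 (edgeR adjusted p = 0.627, or 0.0544 with the library-set term). In the C and F groups it was at 311 to 409 and 263 to 289 CPM, so every RE library was below every other library of the series.

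miR-3552 was at 13.9, 15.02 and 13.5 CPM in the E libraries and at 5.80, 6.92 and 2.75 CPM in the RE libraries. These levels rest on 18 to 24 counts in E and 5 to 9 counts in RE libraries, and the groups do not overlap. The log2 fold change was −1.47 (SE 0.48, edgeR adjusted p = 0.959). C and F libraries spread from 6.23 to 17.2 CPM and reach down into the RE range.

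The shorter form of miR-448-3p, which the authors predicted as a separate miRNA, ends 1 base earlier than the annotated form and can share its reads. It was at 29.3, 16.4 and 19.1 CPM in the E and at 8.70, 12.3 and 11.6 CPM in the RE libraries, with no overlap and a log2 fold change of −0.97 (SE 0.29, edgeR adjusted p = 0.732). The annotated miR-448-3p was at 6.73 to 8.49 CPM in E and at 3.87 to 6.61 CPM in RE libraries, also without overlap (−0.48, SE 0.55), at 4 to 12 counts a library. Its F libraries, at 3.17 to 12.3 CPM, cover both groups.

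miR-1298-5p, the more abundant arm of its hairpin, showed how far the library set can move a value. It was at 4910, 664 and 4156 CPM in E replicates 1 to 3 and at 2413, 361 and 3676 CPM in RE replicates 3 to 5, and the groups overlap. Within the set RE replicate 4 was lower than E replicate 2 by 0.88 on the log2 scale, and the other RE libraries were below the other E libraries (difference −0.57). The log2 fold change was −0.59 (SE 0.95) without the term and −0.65 (SE 0.21) with it.

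Both arms of miR-1264 had the same pattern. miR-1264-3p was at 130, 221 and 129 CPM in E and at 69.6, 164 and 98.6 CPM in RE libraries, and miR-1264-5p at 53.2, 99.7 and 61.1 CPM and at 33.8, 79.9 and 39.1 CPM. Across the whole groups the values overlap, while within each library set every RE value was lower. The log2 fold changes were −0.53 and −0.48 (SEs 0.45 and 0.53), and −0.55 and −0.53 (0.17 and 0.20) with the term. miR-1912-3p, at 11.6, 4.10 and 10.7 CPM in E and 2.90, 3.07 and 13.2 CPM in RE libraries, did not keep the order, since RE replicate 5 had the highest value.

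In all, 7 of the 8 were lower in RE within both library sets, against 9.98% of all miRNAs tested, and 4 of 8 had groups without overlap in that direction, against 3.48%. At an unadjusted p under 0.05 there were 3 without the term, against 1.39% of all miRNAs tested, and 6 with it, against 4.18%, all of them lower. None of the 8 passed adjustment in edgeR over all 12 libraries, with or without the term, and miR-1298-3p did in DESeq2. In edgeR miR-1298-3p passed it in the libraries outside the set, and with the term without E replicate 2 or RE replicate 4. The list without miR-3552 and the shorter form of miR-448-3p, which were added after values were seen, held 6 tested miRNAs. Of these 5 were lower within both library sets and 2 had groups without overlap. At an unadjusted p under 0.05 there were 1 without the term and 4 with it. The 8 are not independent either: they hold both arms of miR-1264 and miR-1298, and both forms of miR-448-3p. Reads of the miRNAs in Htr2c summed to 5505, 1366 and 4728 CPM in the E and to 2698, 881 and 4033 CPM in the RE libraries, a sum that miR-1298-5p dominates. In the C and F groups the sums were 1821 to 4834 CPM and 1255 to 4017 CPM.

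Markers of the ventricle lining were set beside this, because choroid plexus holds much Htr2c. miR-204-5p, abundant in choroid plexus, was at 1119, 1236 and 903 CPM in E and at 725, 1030 and 753 CPM in RE libraries. The groups overlap, but within each library set every RE value was lower, the same pattern as in 7 of the 8 miRNAs from Htr2c (log2 fold change −0.38, SE 0.39, and −0.40, SE 0.19, with the term). The other arm, miR-204-3p, differed by −0.09 (SE 0.34) without that order. On the list of choroid plexus and ciliated ependyma 6 miRNAs were tested, and these 2 arms were the ones with lower means, while the 4 of the miR-34 and miR-449 family, known from ciliated cells, had higher means. The summed level of the list was 1400 to 1570 CPM in E and 1279 to 1752 CPM in RE libraries. The part of choroid plexus content in the values of the Htr2c hairpins was not tested.

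**Figure D2:**
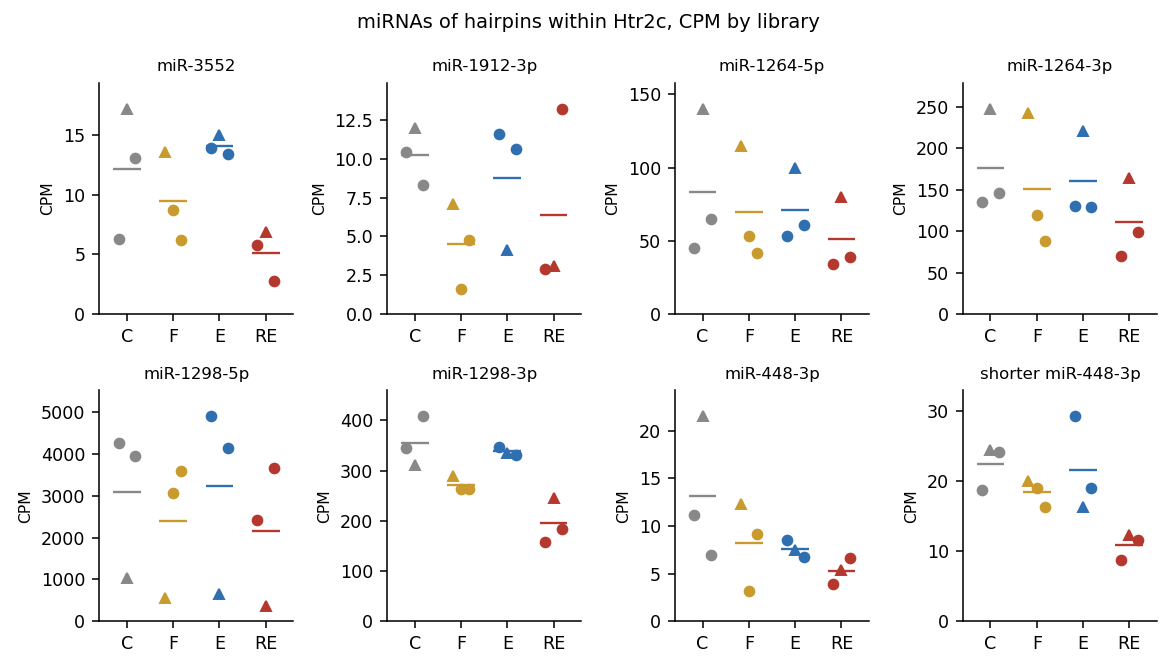
CPM in each of the 12 libraries for the 8 tested miRNAs from hairpins within Htr2c, by group (C, F, E, RE); horizontal bars are group means, and triangles are the 4 libraries that stood apart (C replicate 2, F replicate 1, E replicate 2, RE replicate 4). For miR-1298-3p all 3 RE libraries (158 to 245 CPM) lie below all others, while for miR-1298-5p the triangles are lowest in every group and the RE triangle (361 CPM) lies below that of the E group (664 CPM).

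The 3 tested miRNAs of the vessel wall all had lower values after retrieval-extinction, against 3.48% of all miRNAs with RE libraries wholly below E libraries. miR-143 and miR-145 are made from neighbouring hairpins on chromosome 18 (61649196 to 61649258 and 61647825 to 61647894, minus strand, GRCm38) and are known from smooth muscle cells and pericytes. miR-143-3p was at 18100, 8843 and 26016 CPM in the E libraries and at 7388, 4322 and 7626 CPM in the RE libraries. The groups do not overlap, although E replicate 2 comes close to RE replicate 5. The log2 fold change was −1.45 (SE 0.60, edgeR adjusted p = 0.999). With the library-set term, drawn from these same counts, it was −1.36 (SE 0.24, edgeR adjusted p = 0.031), so in that fit miR-143-3p was lower in RE than in E.

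The other members went the same way. miR-143-5p was at 23.9, 38.2 and 64.5 CPM in E and at 16.4, 22.3 and 18.2 CPM in RE libraries (log2 fold change −1.15, SE 0.45). miR-145a-5p was at 1009, 895 and 1817 CPM in E and at 617, 654 and 594 CPM in RE libraries (−0.997, SE 0.30). It thus lay just under the limit of the criterion, and passed it under most alternatives, from −1.01 with DESeq2 size factors to −1.23 in the 8 libraries outside the set, but not in the robust fit, with the library-set term, without E replicate 3 or without any 1 of the F replicates. None of the 3 overlapped between groups, and E replicate 3 had the highest value of each. The study names miR-143-3p from these same samples. Without E replicate 3 the log2 fold change of miR-143-3p was −1.12 and that of miR-143-5p −0.79, and neither passed the criterion. It was also lost for miR-143-3p without E replicate 1 (−1.50), RE replicate 3 (−1.62) or RE replicate 4 (−1.24), and for miR-143-5p without RE replicate 3 (−1.14) or RE replicate 5 (−1.19). The adjusted call of miR-143-3p with the term was lost without E replicate 3 (edgeR adjusted p = 0.0616), RE replicate 3 (0.155) or RE replicate 5 (0.0889). Their C libraries, at 2704 to 13376 CPM for miR-143-3p and 13.4 to 31.3 CPM for miR-143-5p, overlap both groups. The 3 miRNAs summed to 19133, 9776 and 27898 CPM in the E libraries and to 8021, 4998 and 8237 CPM in the RE libraries. In F replicates 1 to 3 they summed to 4265, 8547 and 9330 CPM, and in C replicates 1 to 3 to 14244, 3199 and 13834 CPM. Within each library set every E sum was above every C, F and RE sum.

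Other cell types of blood and vessels did not show this pattern. The endothelial miR-126a-3p was at 11381, 6294 and 9621 CPM in E and at 9805, 5454 and 10009 CPM in RE libraries (log2 fold change −0.11, SE 0.41), and miR-126a-5p had a difference of −0.05 (0.45). miR-451a, which red blood cells carry, was at 163, 757 and 274 CPM in E and at 466, 174 and 345 CPM in RE libraries: E replicate 2 was highest and RE replicate 4 low. Its fold change was −0.28 over all 12 libraries and 0.87 in the 8 libraries outside the set. miR-486a-5p, also erythroid, was at −0.28 (0.27). Summed, the 4 erythroid miRNAs in the table ranged from 300.2 to 1055 CPM in E and from 340.4 to 675 CPM in RE libraries. The part of blood or vessel content in the values of miR-143 and miR-145 was not tested.

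miR-375-3p, known from pancreatic islets and the pituitary, was at 108, 126 and 48.2 CPM in the E and at 28.0, 79.1 and 33.0 CPM in the RE libraries. RE replicate 4 lies above E replicate 3, so the groups overlap, but within each library set RE was lower (differences of −0.67 and −1.36). The log2 fold change was −1.003 (SE 0.53) without the term and −1.08 (SE 0.27, edgeR adjusted p = 0.0682) with it. Its hairpin lies on chromosome 1 (74900658 to 74900721, minus strand). Its C libraries, at 28.5 to 58.9 CPM, and F libraries, at 29.3 to 73.6 CPM, all lie below E replicates 1 and 2.

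miR-7a-5p, which is abundant in hypothalamus and pituitary, depended on the library set. It was at 7483 and 7608 CPM in E replicates 1 and 3 against 3295 and 3592 CPM in RE replicates 3 and 5, a difference of −1.13, but at 5243 CPM in E replicate 2 against 6558 CPM in RE replicate 4, a difference of 0.32. miR-7b-5p, of the same seed, did likewise, with differences of −0.67 and 0.53. Over all 12 libraries their log2 fold changes were −0.60 (SE 0.43) and −0.19 (0.48). Of the 4 tested members of the neuroendocrine list, 3 had lower means, and 0 had an unadjusted p under 0.05 without the term. With it 2 did, both lower, against 4.18% of all miRNAs tested.

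On the other side, miR-184-3p was the miRNA past the study's criterion that was higher in the RE group. It is a conserved miRNA best known from the lens and cornea and also expressed in neural progenitors, from a hairpin on chromosome 9 (89802260 to 89802328, minus strand) outside any annotated gene. It was at 34.7, 50.5 and 54.9 CPM in the E libraries and at 98.6, 164 and 110 CPM in the RE libraries. The groups are well apart, at means of 46.7 ± 10.6 and 124 ± 34.8 CPM (SD, n = 3 each), and the log2 fold change was 1.40 (SE 0.37, edgeR adjusted p = 0.627). RE was higher within the library set (1.70) and outside it (1.22). C libraries were at 36.1 to 37.3 CPM, below those of RE, and F libraries at 45.9 to 129 CPM overlapped them.

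miR-132 and miR-212 lie side by side on chromosome 11 (75173682 to 75173747 and 75173388 to 75173478, plus strand) and are transcribed together after CREB activation in neurons. miR-132-3p was at 1612, 1735 and 1806 CPM in the E and at 2383, 2523 and 2526 CPM in the RE libraries. Spread within each group was small beside the gap, and the log2 fold change was 0.53 (SE 0.18, edgeR adjusted p = 0.959, 0.0682 with the library-set term). With library totals in place of TMM it was 0.38, at an unadjusted edgeR p of 0.138. C libraries reached from the E range to just under the RE range, at 1660 to 2381 CPM, and F libraries lay between the groups at 2069 to 2338 CPM.

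The other arm and the neighbouring hairpin did not all follow. miR-132-5p was at 303, 40.3 and 256 CPM in E and at 412, 52.3 and 443 CPM in RE libraries, higher in RE within each library set, with a log2 fold change of 0.60 (SE 0.99; 0.55, SE 0.13, with the term). miR-212-5p was at 687, 199 and 737 CPM and at 938, 564 and 793 CPM, again higher within each set (0.50, SE 0.45). miR-212-3p, which has the same seed as miR-132-3p, was at 71.8, 122 and 105 CPM in E and at 71.5, 119 and 106 CPM in RE libraries, a difference of −0.01 (SE 0.28). Of the 4 tested miRNAs of this list, 1 had every RE library above every E library, against 4.18% of all. Higher values in RE within both library sets were found for 3 of the 4, and for 69 of all 431 miRNAs tested.

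Some miRNAs abundant in neurons had smaller differences of the same sign. miR-181a-5p, made from hairpins on chromosomes 1 and 2, was at 1538, 1583 and 1716 CPM in E and at 2377, 1866 and 2291 CPM in RE libraries, without overlap (log2 fold change 0.43, SE 0.18, edgeR adjusted p = 0.999). All 4 tested miRNAs with its seed had positive fold changes, from 0.06 to 0.43. miR-128-3p, made from introns of R3hdm1 on chromosome 1 and Arpp21 on chromosome 9, was at 46595, 50886 and 42996 CPM in E and at 68081, 64283 and 60441 CPM in RE libraries. These groups do not overlap either (0.46, SE 0.22), but over library totals they do (0.31). The other arms of its hairpins, which can be told apart, were at 0.73 (miR-128-1-5p, SE 0.43) and 0.59 (miR-128-2-5p, 0.74). miR-128-3p dominates the summed level of the miRNAs named in earlier work on fear learning. That sum was 46998 to 53934 CPM in E and 65528 to 73345 CPM in RE libraries. It was 42657, 65419 and 67840 CPM in C and 60648 to 77398 CPM in F libraries, so most of these lay above the E range.

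miR-218-5p, made from introns of Slit2 and Slit3, was at 21978, 5488 and 19057 CPM in E and at 31505, 5702 and 30586 CPM in RE libraries. The gap was large outside the library set (0.60) and small within it (0.06). miR-9-5p had a fold change of 0.12 (SE 0.17) and miR-124-3p 0.06 (0.34). Of 11 neuronal miRNAs tested, 9 had higher and 2 lower means in RE, with a median of 0.12 against 0.05 over all. Their summed level was 92762 to 105587 CPM in E and 110988 to 136196 CPM in RE libraries, without overlap. These values use TMM factors of 0.937 to 0.946 in RE and 0.996 to 1.12 in E libraries. Over library totals alone the summed levels of the groups overlap. miR-128-3p, miR-9-5p and miR-218-5p carry most of this sum, and only miR-128-3p of the 11 had RE libraries wholly above E libraries. The sums in C (76400 to 123470 CPM) and F libraries (98770 to 145693 CPM) reach across both groups.

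The shorter form of miR-24-3p, which the authors predicted on chromosome 8 and which ends 2 bases before the annotated form, was at 961, 892 and 944 CPM in E and at 1302, 1138 and 1235 CPM in RE libraries. It does not overlap between groups and had a log2 fold change of 0.39 (SE 0.18). Annotated miR-24-3p, which can share its reads, was at 475, 210 and 427 CPM and at 589, 239 and 624 CPM, with overlap and nearly the same fold change (0.39, SE 0.46).

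The miR-200 family, which keeps epithelial cells in their state, had higher values in RE at low levels. miR-200b-3p was at 15.4, 17.8 and 23.5 CPM in E and at 33.8, 43.8 and 54.5 CPM in RE libraries, and miR-200a-3p was at 64.1, 41.6 and 68.4 CPM and at 72.5, 109 and 176 CPM. Neither overlaps between groups. Their log2 fold changes were 1.22 (SE 0.63) and 1.04 (0.64), with an edgeR adjusted p of 0.999 for each, and neither passed the study's criterion, since their unadjusted p was 0.0799 and 0.133.

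The spread of this family in other groups was wide. miR-200b-3p was at 195, 21.4 and 77.2 CPM in F replicates 1 to 3 and at 7.18 to 15.99 CPM in the C libraries. It passed the criterion without F replicate 1 (1.23), without F replicate 2 (1.23) and in a fit of the E and RE libraries alone (1.16, edgeR adjusted p = 0.710). It also passed in edgeR's exact test (1.16), without a filter on low counts (1.197), in the 8 libraries outside the set (1.18), with the term in DESeq2 (1.21) and with the term without RE replicate 4 (1.44). miR-200a-3p, which the study names, passed without a filter (1.02) and without F replicate 2 (1.07). miR-429-3p, from the same stretch of chromosome 4, was at 9.26, 2.73 and 15.7 CPM in E and at 11.6, 23.1 and 19.3 CPM in RE libraries (0.95, SE 0.77), with overlap. miR-200c-3p, from another locus, was at −0.16 (1.10).

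**Figure D3:**
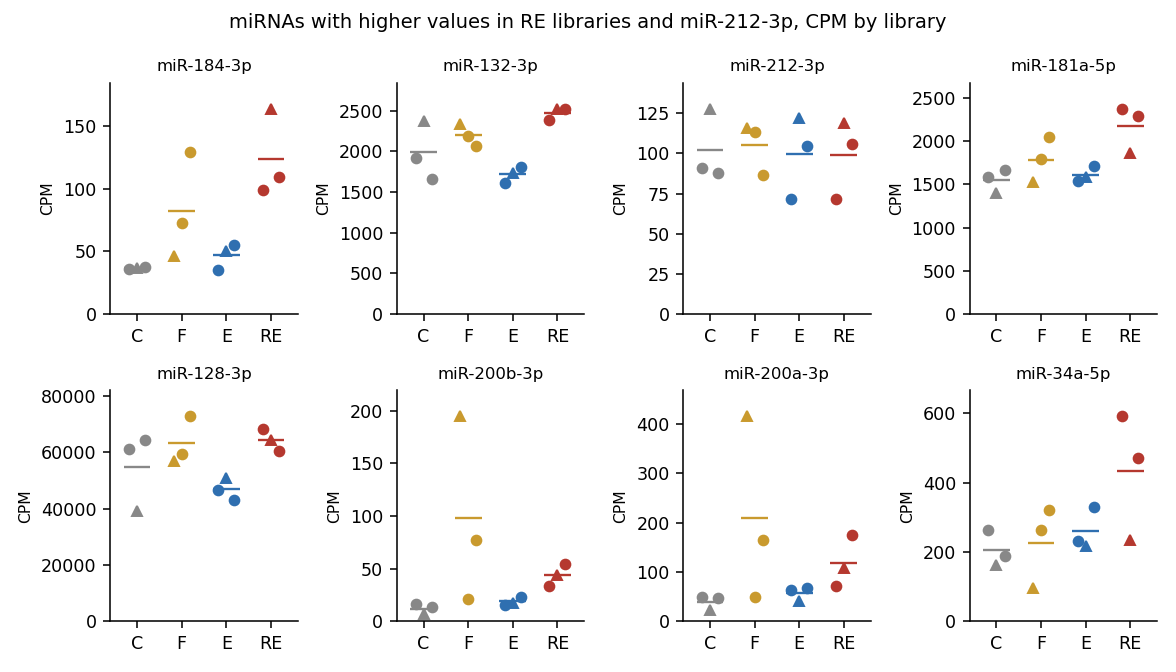
CPM in each of the 12 libraries for 7 miRNAs with higher means in RE than in E and for miR-212-3p, by group; horizontal bars are group means, and triangles are the 4 libraries that stood apart. The RE libraries lie above the E libraries for miR-184-3p (98.6 to 164 against 34.7 to 54.9 CPM) and miR-132-3p (2383 to 2526 against 1612 to 1806 CPM), while those of miR-212-3p cover the same range.

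The p53-induced miR-34 family was higher in some RE libraries. miR-34a-5p was at 232, 216 and 330 CPM in E and at 593, 234 and 473 CPM in RE libraries, and miR-34c-5p, also known from ciliated cells, at 309, 270 and 409 CPM and at 890, 239 and 420 CPM. RE replicate 3 was highest for both, RE replicate 4 was within the E range or below it, and the groups overlap. The log2 fold changes were 0.74 (SE 0.45) and 0.65 (0.47). miR-34c-3p, the rare arm, was at 3.41 to 5.61 CPM in E and at 8.45 to 12.6 CPM in RE libraries, without overlap (1.17, SE 0.90). miR-449a-5p, with the same seed, was at 0.07 (0.66).

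**Figure D4:**
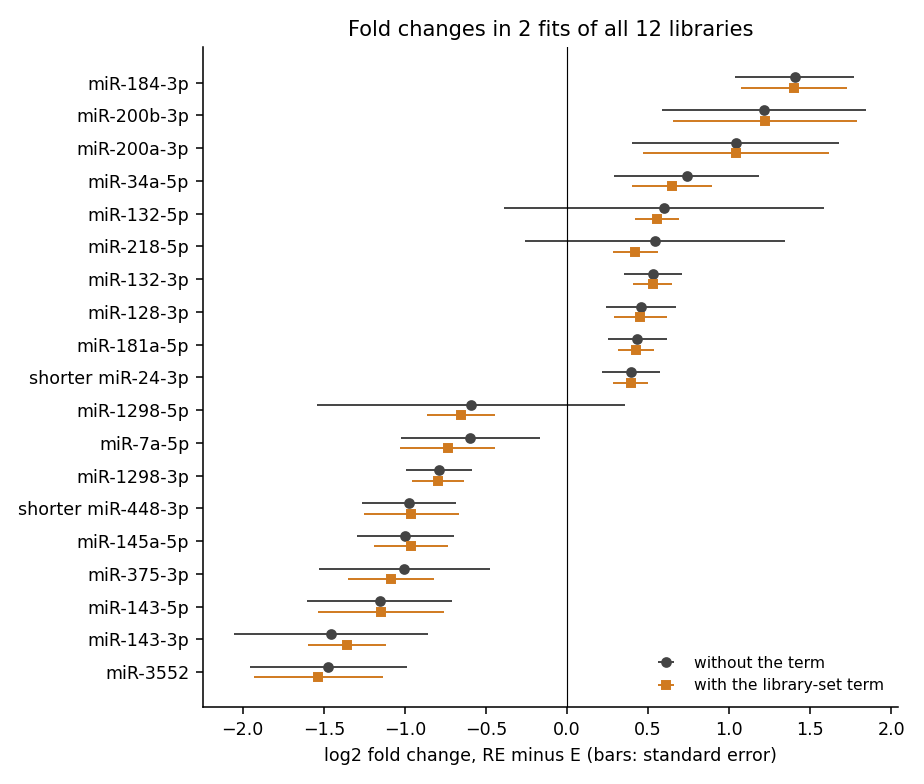
Log2 fold change (RE minus E) with its SE for 19 miRNAs, from the fit of all 12 libraries without other terms (circles) and with a term for the library set (squares). The estimates stay close between fits, while the bars shorten most for miR-132-5p (SE 0.99 to 0.13), miR-1298-5p (0.95 to 0.21) and miR-218-5p (0.80 to 0.14).

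Where both arms of a hairpin were tested, their fold changes can be set side by side. Of 122 hairpins, 84 had arms of the same sign, 60 with both higher in RE and 24 with both lower. Across hairpins Pearson's r was 0.47 and Spearman's rho 0.38, as a description, since arms share libraries and hairpins are not replicates. Some mature arms also enter through different hairpins, such as miR-128-3p through both miR-128-1 and miR-128-2. In 10 hairpins both arms had a fold change of at least 0.4 in size, and in 9 of them the signs agreed: lower for miR-143, miR-1298, miR-1264, miR-7a-2 and miR-199b, and higher for miR-132, miR-34c, miR-128-1 and miR-128-2. The exception was miR-324, with 0.40 for the 5p and −0.68 for the 3p arm.

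Among miRNAs that share a seed, the 9 of the let-7 family were all higher in RE by mean, from 0.06 to 0.39 with a median of 0.26, and 0 of them had groups without overlap. let-7g-5p was at 101552, 128656 and 110737 CPM in E and at 111484, 172141 and 108497 CPM in RE libraries. let-7i-5p differed by 0.06 (SE 0.22). Scaling moves such small values: with library totals in place of TMM the median of all miRNAs shifted from 0.05 to −0.10, and let-7i-5p went to −0.08.

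Of 13 miRNAs named in earlier work on fear learning, 11 were tested, with 5 higher and 6 lower means and a median of −0.01. Of the 11, miR-132-3p and miR-128-3p lay above the E range in all RE libraries by CPM, against 4.18% of all miRNAs tested. miR-182-5p, from the miR-183 cluster of sensory cells, lay below that range, against 3.48% of all. It was at 51.7, 36.9 and 39.8 CPM in E and at 22.2, 16.9 and 31.9 CPM in RE libraries (−0.84, SE 0.62). Its cluster mates miR-183-5p and miR-96-5p, at −0.22 (0.61) and −0.23 (0.89), overlap between groups.

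The imprinted Dlk1-Dio3 cluster of chromosome 12, a large set of miRNAs abundant in neurons, differed little. Of 68 members tested 41 had higher and 27 lower means, with a median of 0.04, against 250 higher and 181 lower of all 431. Without the library-set term 0 had an unadjusted p under 0.05. With it 4 did upwards and 1 downwards, against 8.35% and 4.18% of all miRNAs tested. miR-127-3p was at 48680, 47424 and 48192 CPM in E and at 53129, 62333 and 60857 CPM in RE libraries, without overlap (0.29, SE 0.16). Over library totals its groups overlap (0.15). In all, 4 of the 68 members had every RE library above every E library, and 0 had every RE library below, against 4.18% and 3.48% of all miRNAs tested. miR-381-3p was at 0.21 (0.80).

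Glial, immune and muscle miRNAs had overlapping groups. Of oligodendrocyte miRNAs, miR-219a-2-3p was at 3709, 3623 and 3649 CPM in E and at 5018, 3175 and 3539 CPM in RE libraries (0.10, SE 0.23), and miR-338-3p differed by −0.13 (0.59). miR-146a-5p and miR-150-5p, of immune cells, differed by 0.05 (0.44) and 0.00 (0.39). miR-1a-3p, known from muscle, was at 1002 to 1249 CPM in E and 987 to 1270 CPM in RE libraries, and miR-206-3p differed by 0.69 (0.43). miR-203-3p, of skin, was at 141, 167 and 156 CPM in E and at 75.4, 131 and 121 CPM in RE libraries, without overlap (−0.50, SE 0.28).

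A few rarer miRNAs passed 1 on the log2 scale but had an unadjusted p above 0.05 without the library-set term. miR-10b-5p was at 11.6, 0 and 22.4 CPM in E and at 4.83, 3.07 and 3.86 CPM in RE libraries (−1.54, SE 0.97), and miR-1251-5p at 60.2, 6.83 and 42.6 CPM and at 20.3, 3.84 and 26.4 CPM (−1.10, SE 0.86). Both overlap across the groups. miR-323-5p, of the Dlk1-Dio3 cluster, was at 2.32, 3.41 and 1.12 CPM in E and at 4.83, 9.99 and 6.61 CPM in RE libraries, without overlap (1.65, SE 0.97). miR-5129-3p was at 1.05 (SE 0.62).

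The largest fold change of all 431 belonged to a miRNA that the authors predicted on chromosome 18, at 13.1, 3.41 and 5.61 CPM in E and at 74.4, 0 and 36.4 CPM in RE libraries (2.32, SE 1.56). RE replicates 3 and 5 were high, and RE replicate 4 had 0 counts, below every E library. With the library-set term this miRNA, miR-323-5p and miR-5129-3p passed the study's criterion upwards (2.05, 1.75 and 1.09) and miR-1251-5p passed it downwards (−1.04), all with an adjusted p above 0.05 in edgeR. These miRNAs were chosen after their values were seen.

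**Figure D5:**
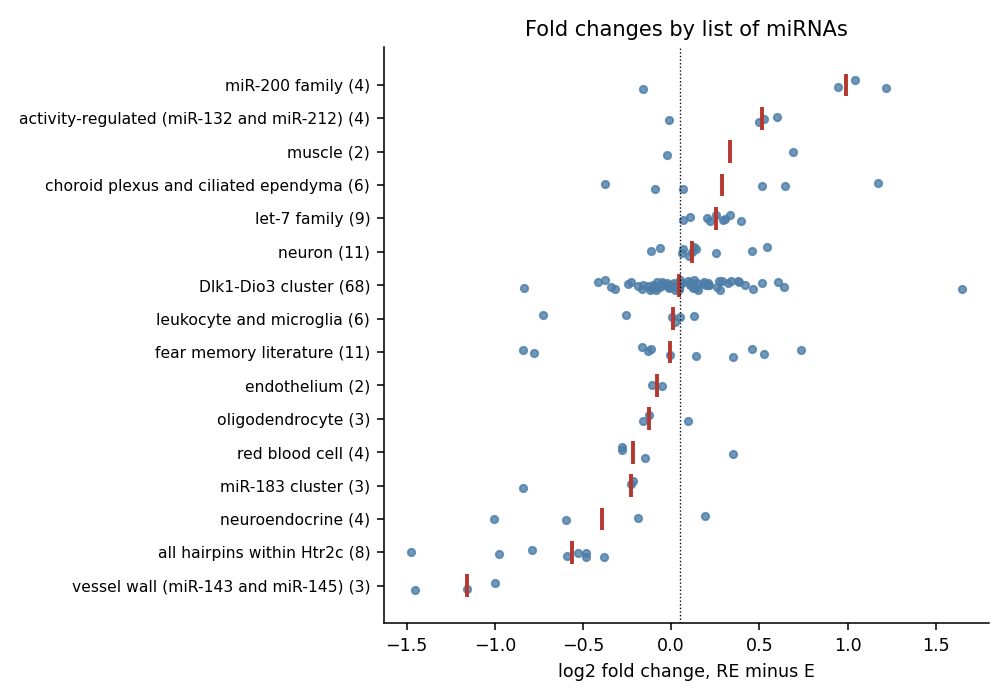
Log2 fold changes (RE minus E) of the tested members of 16 lists, with the number tested in brackets; points are miRNAs, red bars are list medians, and the dotted line is the median of all 431 miRNAs (0.05). The 3 miRNAs of miR-143 and miR-145 (median −1.15) and the 8 of hairpins within Htr2c (median −0.56) lie below 0, and 3 of the 4 miR-200 miRNAs lie near 1.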

How the data were processed

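Small RNA libraries of the BLA from 12 mice were used. The authors trimmed reads with Cutadapt, predicted further miRNAs with miRDeep2 and aligned with Novoalign, and the deposited counts are whole numbers of tags for each mature miRNA. The submitters' processing notes name CASAVA 1.8 and hg38, a human build, and the series' design note calls the profiles retinal where labels and paper give the amygdala. Neither was resolved. For the miRNA reference, the version was not given in the sources used here. A normalized score, rounded by the authors to whole numbers, was deposited too and was used in limma 3.58.1 alternatives.

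Of 1169 entries, 109 repeated another entry's sequence and counts and were used once. The test was edgeR 4.0.16 in R 4.3.3 (TMM, filterByExpr with a minimum count of 10, quasi-likelihood test, all 12 libraries in 1 fit, contrast RE minus E) with Benjamini-Hochberg adjustment over the 431 miRNAs tested. The code was tested on simulated counts. DESeq2 1.42.0, other scalings and filters, a term for the library set and left-out libraries were alternatives. Replicate pairs within E and RE differed beyond sampling (chi-square of 39.9 to 1077 for each degree of freedom). In the main fit, p-values set the RE minus E difference against a spread pooled over all 12 libraries, C and F included.

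miRNAs were named where they passed the criterion or an adjusted p of 0.05, where the study names them (miR-143-3p, miR-200a-3p), as the 2 most abundant of each list, or as arm, seed or cluster mates of miRNAs past a threshold. miR-181a-5p, miR-128-1-5p, miR-128-2-5p, miR-182-5p, miR-324, the shorter forms and other relatives outside this rule were chosen after their values were seen. Members and lists were chosen with earlier results of these data known. Columns of unknown sample numbered 0.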

Additional observations from a re-analysis of the deposited data

How the results depend on the processing

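No paired analysis was possible because the E and RE groups share 1 replicate number, 3. In this section, as reported means the main edgeR fit here and not the study's own counts. By its criterion the study called more miRNAs in all between E and RE than this fit. The study reached miR-143-3p and miR-200a-3p at a wider limit of 0.58 on the log2 scale. At that limit and an unadjusted p under 0.05, this fit had 1 higher and 6 lower of 431. By the study's criterion the counts of miRNAs higher and lower in RE (1 and 3 as reported) were 3 and 5 in edgeR's exact test and in a fit of E and RE libraries alone, 8 and 9 without a filter on low counts, 5 and 5 with the library-set term, and 6 and 11 in the 8 libraries outside the set. With library totals 5 were lower, and limma without a filter gave 2 higher. With library totals or edgeR's exact test, miR-132-3p, miR-181a-5p and the shorter form of miR-24-3p had an unadjusted p above 0.05. In DESeq2 and in the robust fit all of them stayed under 0.05. Adjusted calls (0 as reported) numbered 1 in DESeq2, 2 without a filter, 1 with the term and 3 in the 8 libraries (miR-1298-3p, miR-143-3p and miR-145a-5p). Chosen after seeing the data, the term in DESeq2 gave 5 higher, 5 lower and 8 adjusted calls. The latter were adjusted over fewer miRNAs than were tested. Leaving out a library, with or without the term, gave 1 to 9 higher, 3 to 15 lower and 0 to 5 adjusted calls. miR-184-3p passed the criterion under each alternative run, left-out libraries included. miR-3552 missed it with limma (−0.91 at a pseudocount of 1, −1.10 at 0.5). The causes were not tested.

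Signs turned for some miRNAs, none of which passed a test as reported (log2 values). With library totals they were miR-146a-5p −0.075, miR-150-5p −0.15, miR-219a-2-3p −0.047, miR-9-5p −0.023, let-7i-5p −0.076, miR-122-5p −0.12. With limma at a pseudocount of 1, with or without a filter, they were miR-146a-5p −0.11, miR-150-5p −0.22, miR-219a-2-3p −0.12, miR-9-5p −0.072, let-7g-5p −0.012, let-7i-5p −0.12, miR-122-5p −0.33, miR-381-3p −0.095. With limma at a pseudocount of 0.5 they were miR-146a-5p −0.11, miR-150-5p −0.22, miR-219a-2-3p −0.12, miR-9-5p −0.072, let-7g-5p −0.012, let-7i-5p −0.12, miR-122-5p −0.41, miR-381-3p −0.095. With the 8 libraries outside the set they were miR-126a-5p 0.030, miR-451a 0.87, miR-146a-5p −0.0072, miR-150-5p −0.21, miR-183-5p 0.0075, let-7i-5p −0.043, miR-122-5p −0.0068. With edgeR's exact test they were miR-150-5p −0.066, miR-122-5p −0.025. With E and RE libraries alone they were miR-150-5p −0.066, miR-122-5p −0.027. miR-150-5p was also at −0.027 with DESeq2 size factors, −0.027 with DESeq2, −0.030 with no filter, −0.045 with a mean count of at least 50, −0.015 with annotated miRNAs alone, −0.055 with the term, −0.070 with the term in DESeq2. Over left-out libraries, with or without the term, the ranges were let-7g-5p −0.048 to 0.26, let-7i-5p −0.14 to 0.12, miR-122-5p −0.32 to 0.30, miR-126a-3p −0.34 to 0.12, miR-126a-5p −0.41 to 0.35, miR-146a-5p −0.20 to 0.22, miR-150-5p −0.34 to 0.11, miR-1912-3p −1.60 to 0.014, miR-1a-3p −0.23 to 0.16, miR-219a-2-3p −0.19 to 0.22, miR-338-3p −0.77 to 0.27, miR-34c-5p (0.65 as reported, negative without RE replicate 3) −0.068 to 1.07, miR-381-3p −0.24 to 0.66, miR-451a −1.10 to 0.86, miR-486a-5p −0.52 to 0.058, miR-96-5p −0.81 to 0.26. At 4 to 38 counts a library, miR-3552 and the miR-448 forms are limited by depth.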
